A study of Mus musculus with 2 samples.

Results

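The 6 type IV collagen chain genes, Col4a1 to Col4a6, were described in nuclei of mouse kidneys by single-nucleus RNA sequencing. They were found as the rows of both deposited gene lists whose symbol is one of these names, 6 of 32285 genes, and all 6 had unique molecular identifiers (UMIs, tags that count single RNA molecules) in both libraries. The E18.5 library (embryonic kidney) held nuclei of pooled male and female kidneys labelled Mycf/f;Mycnf/f without Cre, on a mixed background, with no Cre to recombine the floxed alleles. The P3 library (3 days after birth) held nuclei of pooled wild-type kidneys of both sexes, labelled C57BL/6J, although the study's methods describe mixed backgrounds. There was 1 library per age, so no test between ages was possible, and the library, its Cell Ranger release, the background, the genotype and the age cannot be told apart. Intervals given with values are 95% intervals that cover counting error only.

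Type IV collagen forms the sheet-like network of basement membranes. Its chains assemble inside the cell into trimers of fixed composition. The chains of Col4a1 and Col4a2 build the network found in nearly all basement membranes, those of Col4a3, Col4a4 and Col4a5 build the network of the mature glomerular basement membrane and of some tubules, and that of Col4a6 joins the Col4a5 chain in Bowman's capsule, collecting ducts and smooth muscle. As the glomerulus matures, the network of the first kind gives way to that of the second, which podocytes make. Loss of Col4a3, Col4a4 or Col4a5 causes Alport syndrome, and changes in Col4a1 or Col4a2 cause small-vessel disease.

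The genes lie in head-to-head pairs that are transcribed away from each other. In GRCm38 with GENCODE M21 models, Col4a1 (ENSMUSG00000031502, minus strand) covers chr8:11198423-11312826 and Col4a2 (ENSMUSG00000031503, plus strand) covers chr8:11312805-11449287. Col4a4 (ENSMUSG00000067158, minus strand) covers chr1:82448423-82586849 and Col4a3 (ENSMUSG00000079465, plus strand) covers chr1:82586921-82722059. Col4a6 (ENSMUSG00000031273, minus strand) covers chrX:141165403-141474076 and Col4a5 (ENSMUSG00000031274, plus strand) covers chrX:141475385-141689234. The first exons of Col4a1 and Col4a2 share 22 bases, 71 bases separate the starts of Col4a3 and Col4a4, and 1308 bases separate those of Col4a5 and Col4a6.

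The stretches between or before these starts are shown because the levels of the first 2 pairs moved together across clusters of nuclei, as described below. They come from RefSeq promoter windows (GRCm38.p6), which held 5 of the 6 chains and not Col4a3. Capitals mark matches to motifs that were searched on both strands. The CCAAT box was spelled as its name. The GC box was spelled GGGCGG, and CCGCCC is its match on the other strand. The TATA box was spelled TATAAA. The core of LIM homeodomain sites was spelled TAATTA.
Col4a2, plus strand, chr8:11312805-11312826, shared with the first exon of Col4a1: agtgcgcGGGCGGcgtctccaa
Col4a4, minus strand, chr1:82586850-82586920, up to the start of Col4a3: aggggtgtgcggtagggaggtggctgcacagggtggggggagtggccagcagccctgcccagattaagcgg
Col4a6, minus strand, chrX:141474077-141474326: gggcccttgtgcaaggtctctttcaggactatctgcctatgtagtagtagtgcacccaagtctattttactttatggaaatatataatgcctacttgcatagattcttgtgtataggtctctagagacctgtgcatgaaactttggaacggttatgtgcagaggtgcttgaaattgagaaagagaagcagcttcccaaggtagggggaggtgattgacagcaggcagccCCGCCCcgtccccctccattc
Col4a5, plus strand, chrX:141475169-141475384: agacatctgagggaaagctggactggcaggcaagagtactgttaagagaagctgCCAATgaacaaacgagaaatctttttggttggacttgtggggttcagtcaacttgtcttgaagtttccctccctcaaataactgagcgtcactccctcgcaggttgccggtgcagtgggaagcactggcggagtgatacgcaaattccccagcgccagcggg

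In the whole windows of 300 bases, a GC box occurred 3 times for Col4a2 and once each for Col4a1, Col4a5 and Col4a6, and not for Col4a4. It was present in 35.7% of all 32851 windows. A CCAAT box occurred once each for Col4a1, Col4a2 and Col4a5, against 37.4% of all windows. None of the 5 windows held a TATA box (13.6% of all) or the LIM homeodomain core (5.29% of all). These letter matches describe the windows alone.

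Of 21600 barcodes at E18.5 and 12216 at P3, 21270 and 11765 nuclei passed the quality limits, with 77321253 and 70055219 UMIs. The libraries shared 69 barcodes. Nuclei were clustered without the 6 chains and without the matrix and receptor genes listed below, and clusters were called a class with the suffix -like from markers. Unnamed clusters held 28.8% of nuclei at E18.5 and 29.9% at P3 and were kept among the other nuclei. At P3 a cluster of 914 nuclei with 6 of 8 early nephron markers and 3 of 8 nephron progenitor markers raised stayed unnamed. It was led by Eya1, a nephron progenitor marker that also led the E18.5 nephron progenitor-like cluster. No P3 cluster was called nephron progenitor-like, and such nuclei may lie in the unnamed cluster. The early nephron-like classes of the libraries may thus hold unlike nuclei. Podocyte-like nuclei numbered 1187 at E18.5 and 285 at P3, in 4 and 3 clusters. All 12 podocyte markers, from which the class was named, were higher in them than in the other nuclei at both ages. This describes the class and is no check of its name. Nphs1, which encodes nephrin of the slit diaphragm, stood at 607 against 24.1 CPM (UMIs per 1000000 UMIs of the class) at E18.5 and 1367 against 20.4 CPM at P3. Called doublets made up 35.6% of podocyte-like nuclei at E18.5 and 22.8% at P3, so the main values of the chains are also given without them.

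Over all nuclei, Col4a1 was counted most often, with 31949 UMIs at E18.5 and 36942 at P3, and Col4a6 least often, with 3138 and 3196. Podocyte-like nuclei were 5.58% of the nuclei at E18.5 and 2.42% at P3. Of the UMIs of all genes they held 5543694 of 77321253 at E18.5 and 1611403 of 70055219 at P3. They held 38.6% of the Col4a3 UMIs and 27.2% of the Col4a4 UMIs at E18.5, and 17.4% and 11.6% at P3. Their shares of Col4a1 were 5.31% and 1.49%. Even for Col4a3, most UMIs at both ages were thus counted in other nuclei. That count includes called doublets and any free RNA from outside the nuclei, and their part was not tested.

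Of the 6 chains, Col4a3 and Col4a4 were the most raised in podocyte-like nuclei over all other nuclei. They did not set the class apart from every other class. With called doublets kept, loop of Henle-like nuclei had more Col4a3 at E18.5 (474 against 387 CPM), but not at P3 (354 against 801 CPM). Distal tubule-like nuclei had more Col4a4 at both ages (414 against 323 CPM and 803 against 642 CPM). Col4a3 stood at 387 CPM (371 to 404) in podocyte-like nuclei against 47.7 CPM in all other nuclei at E18.5, 8.12-fold (7.69 to 8.58), and at 801 CPM (758 to 846) against 89.3 CPM at P3, 8.98-fold (8.45 to 9.53). Col4a4 stood at 323 against 66.9 CPM at E18.5, 4.83-fold (4.57 to 5.10), and at 642 against 115 CPM at P3, 5.58-fold (5.23 to 5.96). These 2 of the 6 chains were past 2-fold higher at each age, where 4.73% of 19894 genes at E18.5 and 7.85% of 19537 genes at P3 were. Col4a5, their partner in the trimer, was 1.58-fold (1.49 to 1.68) and 1.79-fold (1.63 to 1.97) higher. Col4a1 was lower in podocyte-like than in other nuclei, at 306 against 421 CPM at E18.5 and 341 against 532 CPM at P3, and Col4a2 likewise, at 189 against 233 CPM and 281 against 354 CPM. Col4a6 did not differ beyond counting error, with ratios of 0.905 (0.782 to 1.04) and 0.965 (0.752 to 1.22). With called doublets kept, no chain was past 2-fold lower, against 9.39% and 21.0% of genes. The median log2 ratio over the 6 chains was 0.26 at E18.5 and 0.40 at P3, beside -0.25 and -0.29 over all genes tested.

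These calls depended on how the class was taken. Without called doublets, Col4a3 was 10.8-fold and 11.5-fold and Col4a4 6.36-fold and 6.65-fold higher in podocyte-like nuclei. Col4a5 was then 1.88-fold higher at E18.5 and, at 2.03-fold, past the limit at P3, as it also was with Leiden clustering (2.04-fold) and with 20 neighbours (2.02-fold). Col4a1 was 0.593-fold at E18.5 and, at 0.462-fold, past 2-fold lower at P3, where Leiden clustering (0.427-fold), 20 neighbours (0.404-fold) and nuclei without neighbour markers (0.463-fold) also placed it. When nuclei were gated one by one on podocyte markers, as described below, Col4a3 was 4.21-fold and 2.54-fold higher and Col4a4 2.70-fold and, no longer past the limit, 1.78-fold. With the proximal tubule-like level subtracted, Col4a3 was 12.6-fold and 54.8-fold and Col4a4 7.31-fold and 18.0-fold higher. The P3 values rest on a small remainder, since the Col4a3 level subtracted was 76.0 CPM and that of the other nuclei 89.3 CPM. Without a P3 proximal tubule-like cluster of 803 nuclei, 92.9% of them called doublets, the proximal tubule-like level of Col4a3 was 40.9 CPM.

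At a fixed depth of 1000 UMIs per nucleus, 30.0% of podocyte-like nuclei at E18.5 and 42.8% at P3 had a Col4a3 UMI, against 2.56% and 3.14% of leukocyte-like nuclei. Leukocyte-like nuclei served as a class outside the basement membrane. Without thinning, the podocyte-like shares were 62.3% and 78.6% at median depths of 3712 and 4805 UMIs, and the leukocyte-like shares 5.10% and 7.73% at 2310 and 2566 UMIs. For Col4a1 the thinned shares were 23.3% and 22.5% in podocyte-like nuclei and 21.2% and 21.5% in leukocyte-like nuclei. The Col4a1 shares overlapped with those of leukocyte-like nuclei and cannot be told from background. In CPM, podocyte-like Col4a1 was above the leukocyte-like level at P3 (341 against 243) and overlapped with it at E18.5 (306 against 254). Without called doublets it was 253 CPM at both ages (234 to 273 and 224 to 286). Both intervals then overlapped with those of leukocyte-like nuclei. Col4a2 was above the leukocyte-like level, at 189 against 72.1 CPM and 281 against 112 CPM. Its thinned shares still overlapped, at 15.2% against 8.97% and 17.2% against 10.5%. The Col4a3 shares did not overlap with background. Thinning left out 1 podocyte-like and 1 leukocyte-like nucleus at E18.5, and 0 and 3 at P3.

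Per 100 kb of gene length, the scale used to set chains beside each other, podocyte-like nuclei had 287 CPM of Col4a3, 267 of Col4a1, 233 of Col4a4, 139 of Col4a2 and 104 of Col4a5 at E18.5, and Col4a6 lay between 10.4 and 13.7. At P3 the same levels were 593 for Col4a3, 464 for Col4a4, 298 for Col4a1, 206 for Col4a2, 133 for Col4a5 and 14.3 for Col4a6. Col4a3 stood first at both ages, although its interval overlapped with that of Col4a1 at E18.5, and Col4a6 stood last. In endothelium-like nuclei Col4a1 stood first, at 485 and 604 CPM per 100 kb, and Col4a2 second, at 241 and 393, while Col4a3 was at 22.7 and 26.7.

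Unnamed clusters were left out of the rankings of classes here and below. The rule for mural-like clusters, added after clusters were seen, left 2 clusters unnamed. These held 520 nuclei at E18.5 (3 of 8 mural markers raised) and 196 at P3 (4 of 8). Across named classes, Col4a1 was highest in mural-like nuclei at E18.5 (715 CPM, 149 nuclei), followed by endothelium-like nuclei (555 CPM), proximal tubule-like nuclei (486 CPM) and interstitium-like nuclei (476 CPM). The last pair did not differ beyond counting error. At P3 interstitium-like nuclei were highest (801 CPM), followed by endothelium-like (691 CPM) and proximal tubule-like nuclei (450 CPM), and the P3 mural-like class, with 32 nuclei, was too small to rank. Loop of Henle-like nuclei stood last at both ages (208 and 213 CPM), level with distal tubule-like nuclei at P3 (213 CPM) and not apart from leukocyte-like nuclei at E18.5 (254 CPM).

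Col4a2 ran close behind its neighbour. It was highest in mural-like (364 CPM) and endothelium-like nuclei (329 CPM) at E18.5, which did not differ beyond counting error, and in endothelium-like (536 CPM) and interstitium-like nuclei (512 CPM) at P3. It was lowest in leukocyte-like nuclei, at 72.1 and 112 CPM, although ureteric epithelium-like nuclei at P3 (132 CPM) did not differ from them beyond counting error.

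**Figure D1:**
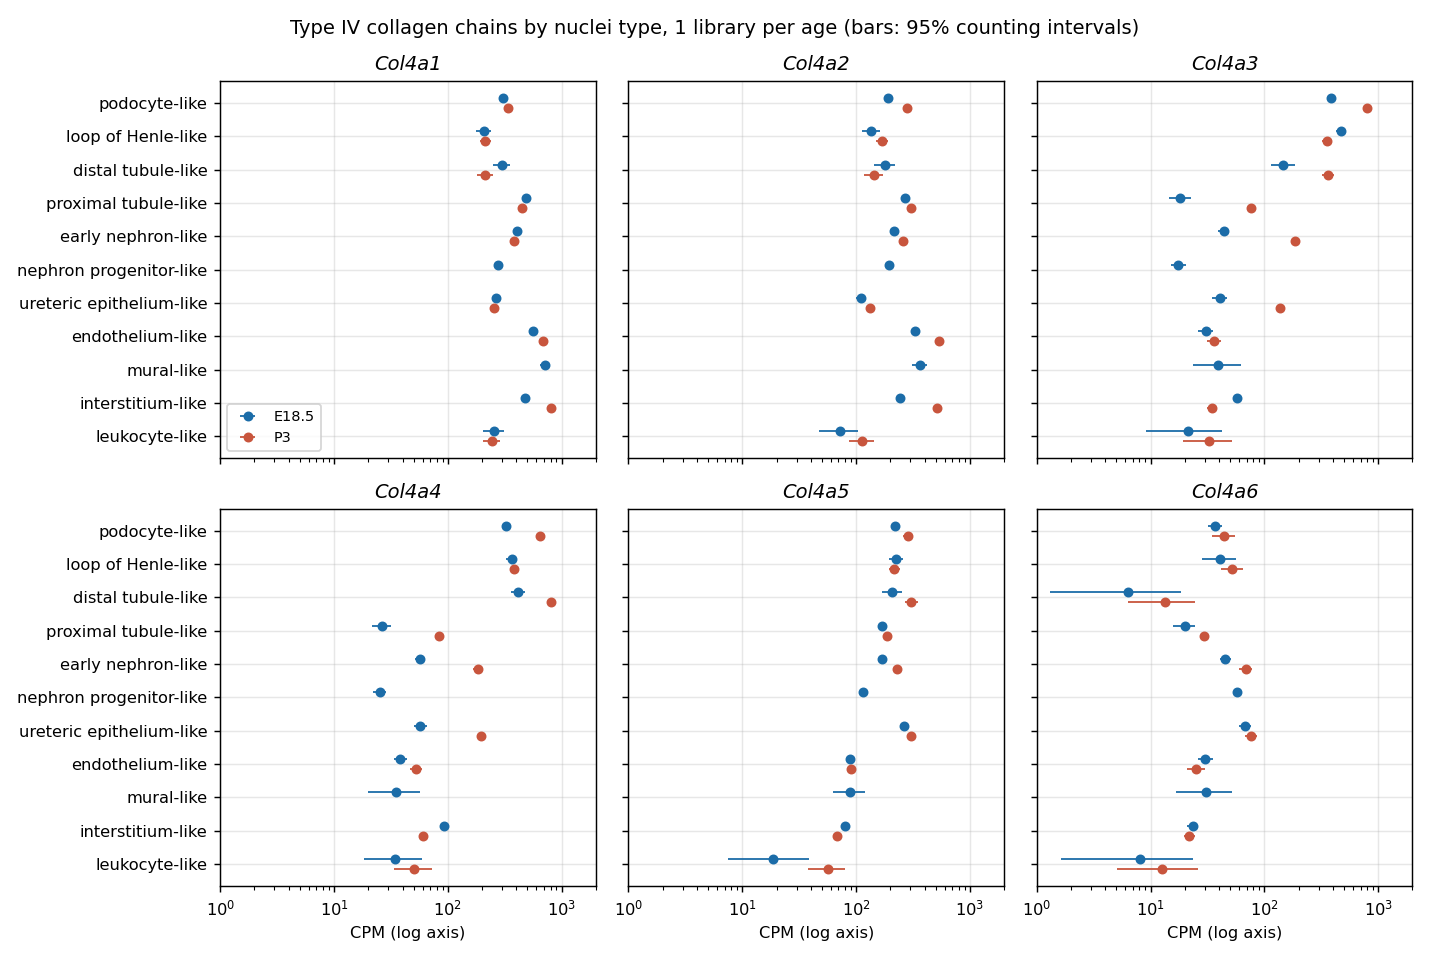
Level of each chain in CPM (log axis) by class of nuclei, with E18.5 in blue and P3 in red, 1 library each. Points are CPM of the class and bars 95% counting intervals, and unnamed nuclei and classes under 50 nuclei are not drawn. Col4a3 and Col4a4 were high in podocyte-like, loop of Henle-like and distal tubule-like nuclei and low in endothelium-like and leukocyte-like nuclei, whereas Col4a1 differed less between classes.

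Col4a3 was not highest in podocyte-like nuclei at E18.5. Loop of Henle-like nuclei, defined by Umod and Slc12a1, stood at 474 CPM against 387 CPM, 1.22-fold (1.10 to 1.36). Without called doublets, podocyte-like nuclei stood at 516 CPM. At P3 the order was podocyte-like (801 CPM), distal tubule-like (364 CPM) and loop of Henle-like (354 CPM), of which the last pair did not differ beyond counting error. The lowest class at E18.5 was nephron progenitor-like nuclei at 17.5 CPM, next to proximal tubule-like (18.3 CPM) and leukocyte-like nuclei (21.3 CPM).

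Col4a4 departed from Col4a3 in the distal tubule. In distal tubule-like nuclei, defined by Slc12a3 and Trpm6, Col4a4 was 414 CPM and Col4a3 147 CPM at E18.5, and 803 and 364 CPM at P3. At E18.5 the distal tubule-like, loop of Henle-like (364 CPM) and podocyte-like (323 CPM) levels of Col4a4 formed a row in which neighbours did not differ beyond counting error. The ends of the row did not overlap, with intervals of 358 to 477 and 308 to 338 CPM. At P3 the distal tubule-like level exceeded the podocyte-like level 1.25-fold (1.13 to 1.38). Without called doublets, podocyte-like Col4a4 was 420 CPM (396 to 446) at E18.5 and 718 CPM (668 to 771) at P3. Both then overlapped with the distal tubule-like intervals, which reached down to 358 and 740 CPM. Per 100 kb, distal tubule-like nuclei had 299 CPM of Col4a4 and 109 of Col4a3 at E18.5, and 580 and 269 at P3.

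Col4a5 was spread more evenly over epithelial classes. It was 262 CPM in ureteric epithelium-like, 225 in loop of Henle-like, 222 in podocyte-like and 207 in distal tubule-like nuclei at E18.5, and these neighbours did not differ beyond counting error. At P3 the same classes had 304, 216, 285 and 305 CPM. Endothelium-like nuclei had 89.1 and 90.4 CPM. Col4a6 stood first in ureteric epithelium-like nuclei at both ages (67.5 and 76.4 CPM), where early nephron-like nuclei at P3 (68.7 CPM) did not differ from them beyond counting error. Few Col4a6 UMIs came from distal tubule-like nuclei, with 6.40 CPM (1.32 to 18.7) and 13.3 CPM (6.40 to 24.5).

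Some clusters stood far from the rest of their class. Within the ureteric epithelium-like class, a cluster led by Upk1b, a uroplakin of the urothelium, had 89 nuclei at E18.5 and 71 at P3. It held 390 and 518 CPM of Col4a5, 166 and 194 CPM of Col4a6, and 114 and 96.3 CPM of Col4a1, the lowest Col4a1 of any cluster of at least 50 nuclei in each library. At P3, a cluster of 101 nuclei led by Sgcz, Ranbp3l, Prox1, Scel and Scin lay in the early nephron-like class. It had 3 of 8 early nephron markers raised, and none among its leading genes. It held 1009 CPM of Col4a3, 854 of Col4a4 and 492 of Col4a5. Among P3 clusters, 1 podocyte-like cluster, with Magi2 and Nphs1 among its leading genes (1384 CPM), was higher in Col4a3. A cluster of 148 nuclei led by Slc14a2, with Aqp2 among its raised markers, had 317 CPM of Col4a3 and 402 of Col4a4 at P3. The other ureteric epithelium-like clusters at P3 had 44.3 to 101 CPM of Col4a3, and the E18.5 cluster with Slc14a2 among its leading genes had 42.5 CPM of Col4a3 and 76.2 of Col4a4.

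Interstitium-like nuclei also differed among themselves. At E18.5, 3145 nuclei led by Epha3 had 568 CPM of Col4a1, 28.3 of Col4a3 and 40.7 of Col4a4. A second cluster of 1157 nuclei, led by Gria1 and Ntn1 with Foxd1 raised, had 247 CPM of Col4a1, 144 of Col4a3 and 241 of Col4a4. At P3, 697 nuclei led by Zfp536 had the highest Col4a1 of any cluster, 1168 CPM, with 23.1 CPM of Col4a3. An unnamed P3 cluster of 196 nuclei, with 4 of 8 mural markers raised, had 1059 CPM of Col4a1, 276 of Col4a3 and 210 of Col4a6, the highest Col4a6 of any cluster of at least 50 nuclei.

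The pairs moved together to different degrees. Over clusters of at least 50 nuclei, Pearson's r of log2(CPM + 10) between Col4a1 and Col4a2 was 0.88 at E18.5 (25 clusters) and 0.93 at P3 (30 clusters). Between Col4a3 and Col4a4 it was 0.93 and 0.95, and between Col4a5 and Col4a6 0.59 and 0.56. Across the pairs, r between Col4a1 and Col4a3 was -0.25 and -0.37, and between Col4a3 and Col4a5 0.43 and 0.68. Clusters of a library share its depth and free RNA, so these values describe the libraries and carry no p-value.

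**Figure D2:**
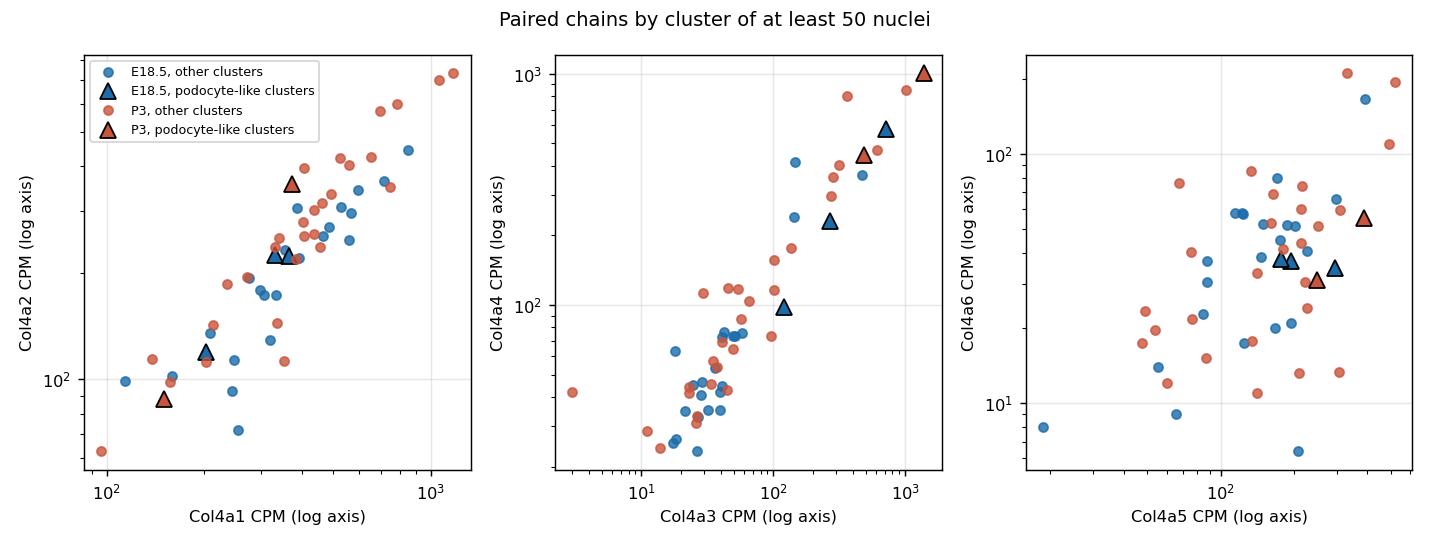
Levels of each head-to-head pair by cluster of at least 50 nuclei, in CPM on log axes, with E18.5 in blue, P3 in red and podocyte-like clusters as triangles. Col4a1 with Col4a2 and Col4a3 with Col4a4 lay along a line (r from 0.88 to 0.95), and Col4a5 with Col4a6 scattered more widely (r of 0.59 and 0.56).

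Over 21 combinations of class and library, the gene most like Col4a1 among 5099 genes of at least 100 CPM in 1 class was Col4a2 (r = 0.89), followed by Col25a1 (0.85), Zcchc14 (0.84), Snx4 (0.84) and Rhoj (0.82). The gene most like Col4a3 was Col4a4 (0.96), followed by Arhgef18 (0.90), Adcy1 (0.86), Casz1 (0.84) and Sh2d4a (0.82). In both cases the partner across the shared start region came first. The third pair could be read in 1 direction only. Col4a6 was at most 76.4 CPM in a named class, below the limit of 100 CPM, so it could not be listed for Col4a5. Col4a5 was not among the 5 genes most like Col4a6, and r between them was 0.48.

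In single podocyte-like nuclei thinned to 1000 UMIs, Col4a3 and Col4a4 were found together in 145 of 1186 nuclei at E18.5, where 102 would follow from independent detection, a ratio of 1.42 (1.20 to 1.68). Against the number expected within each cluster the ratio was 1.22 (1.03 to 1.43), and without called doublets 1.17 (0.965 to 1.41), so the excess within clusters was then not detectable. At P3 the ratio was 1.21 (0.929 to 1.54), and at 2000 UMIs per nucleus 1.22 (1.02 to 1.45), but within clusters at 1000 UMIs it was 1.06 (0.820 to 1.36). For Col4a1 and Col4a2 the ratios were 1.19 (0.886 to 1.57) and 1.54 (0.900 to 2.47), and for Col4a1 and Col4a3 0.881 (0.691 to 1.11) and 0.803 (0.503 to 1.22). The intervals of these pairs held 1 at both ages.

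The balance of chains was taken as UMIs of Col4a3, Col4a4 and Col4a5 over UMIs of Col4a1 and Col4a2, a ratio of counts that is not scaled by gene length. In podocyte-like nuclei it was 1.88 (1.80 to 1.97) in the E18.5 library and 2.78 (2.59 to 2.99) in the P3 library. In endothelium-like nuclei it was 0.179 (0.166 to 0.192) and 0.146 (0.136 to 0.156), so the podocyte-like balance was 10.5-fold (9.65 to 11.5) and 19.0-fold (17.2 to 21.0) higher. The endothelium-like class took in endothelium of the whole kidney. Glomerular endothelium, the other source of the glomerular basement membrane, was not set apart within it. The podocyte-like class was not alone above 1. Loop of Henle-like nuclei had 3.10 (2.71 to 3.55) and 2.48 (2.25 to 2.74), and distal tubule-like nuclei 1.61 (1.36 to 1.92) and 4.13 (3.61 to 4.74). Ureteric epithelium-like nuclei had 0.953 (0.887 to 1.02) and 1.63 (1.53 to 1.74), while proximal tubule-like nuclei stayed at 0.281 and 0.458. Without called doublets the podocyte-like balance was 2.88 (2.69 to 3.09) and 4.16 (3.77 to 4.59).

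**Figure D3:**
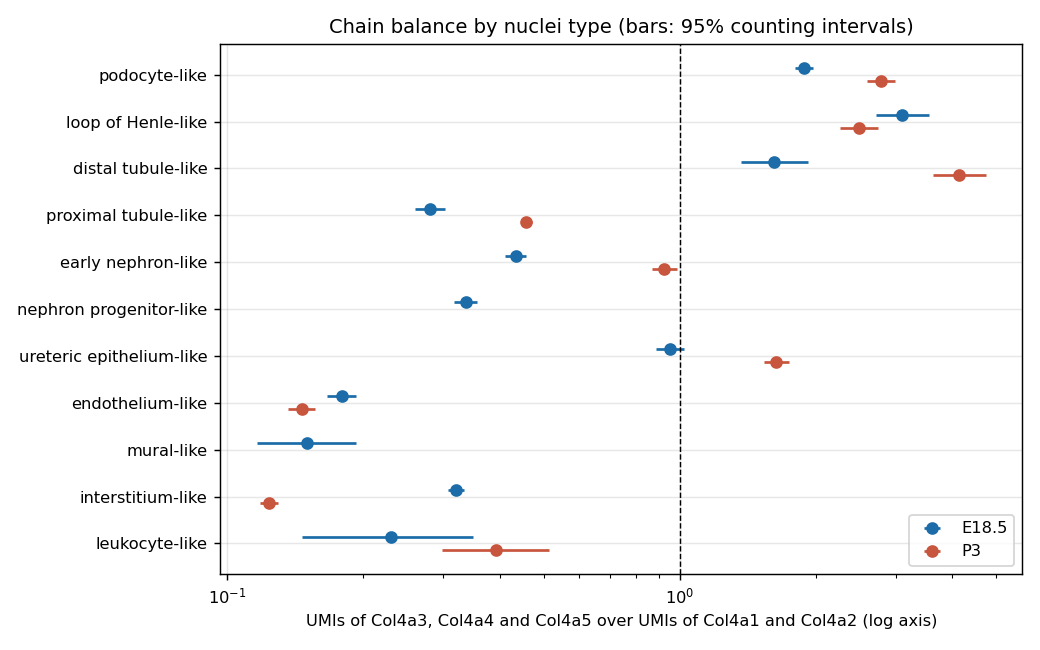
UMIs of Col4a3, Col4a4 and Col4a5 over those of Col4a1 and Col4a2 (log axis) by class, with E18.5 in blue and P3 in red. Bars are 95% counting intervals and the dashed line marks equal UMIs. Podocyte-like, loop of Henle-like and distal tubule-like nuclei lay above 1 at both ages, and endothelium-like, mural-like, interstitium-like and leukocyte-like nuclei between 0.124 and 0.393.

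The balance depended on how podocyte-like nuclei were taken. When nuclei were instead gated one by one on at least 5 of the 12 podocyte markers, 2529 nuclei at E18.5 and 995 at P3 passed, of which 45.4% and 27.3% lay in podocyte-like clusters. Their median depth was 4218 and 9152 UMIs and 36.0% and 50.5% were called doublets. Among them the balance was below 1, at 0.934 and 0.724. When the CPM of leukocyte-like nuclei was subtracted from each chain, an alternative added after the data were seen, it was 5.05 and 5.96. These values rest on small remainders of Col4a1, from 306 against 254 CPM at E18.5 and 341 against 243 CPM at P3.

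Podocyte-like clusters differed widely from each other. Without called doublets, 513 E18.5 nuclei of a cluster with Magi2 and Nphs1 among its leading genes had 711 CPM of Col4a3, 579 of Col4a4, 297 of Col4a5, 200 of Col4a1 and 121 of Col4a2, a balance of 4.94 (4.49 to 5.44). In 166 nuclei of the cluster led by Ndnf, with 7 of 12 podocyte markers raised, the same chains had 114, 98.1, 177, 336 and 220 CPM, a balance of 0.700 (0.580 to 0.842). At P3, 127 nuclei of the cluster whose leading genes include Podxl and Ddn had 1410 CPM of Col4a3, 1013 of Col4a4 and 144 of Col4a1, a balance of 12.4 with a lower limit of 10.4. In 90 P3 nuclei of the cluster with Ndnf among its leading genes, they had 394, 381 and 360 CPM, a balance of 1.38 (1.20 to 1.59). At both ages the Ndnf cluster had less Col4a3 and Col4a4 and more Col4a1 and Col4a2 than the other cluster described, with no overlap of intervals.

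The same order appeared when podocyte-like nuclei were ranked, within each library, by the share of UMIs from 6 markers of mature podocytes, among them Nphs1, Podxl, Ptpro, Synpo and Clic5, and split into 4 bins of equal size. At E18.5, Col4a3 went from 140 through 346 and 509 to 780 CPM and Col4a4 from 156 through 270 and 435 to 589 CPM. Col4a1 went over the same bins from 411 through 284 and 247 to 206 CPM, and Col4a2 from 246 through 210 and 127 to 123 CPM. The balance was 0.705, 1.67, 3.14 and 5.19.

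At P3, Col4a3 went from 290 through 605 and 1003 to 1615 CPM, and Col4a1 from 543 through 377 and 195 to 139 CPM, so the balance was 0.793 in the first bin, 6.41 in the third and 13.3 (10.6 to 17.0) in the last. Col4a5 went from 193 to 451 CPM, and Col4a6 kept no order. The Col4a1 level of the last bin, 206 CPM (179 to 237) at E18.5 and 139 CPM (102 to 185) at P3, was at or below that of leukocyte-like nuclei.

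Other measures moved with the bins. The summed level of the 12 endothelial markers was 813 CPM in the first and 290 CPM in the last bin of the E18.5 library, and 512 and 133 CPM in the P3 library, beside 6110 and 6815 CPM in endothelium-like nuclei. That of the 8 mural markers went from 311 to 181 and from 358 to 104 CPM. Early nephron markers went from 930 to 370 and from 1096 to 210 CPM. Called doublets went from 57.6% to 1.01% of nuclei at E18.5 and from 38.9% in the first to 1.41% in the third bin at P3, and the median depth from 4922 to 3178 and from 5181 to 4501 UMIs. Not every course was steady, since the second bin had the most called doublets in both libraries (59.9% and 50.7%). It also had the highest endothelial marker level (558 CPM) and depth (6186 UMIs) at P3, and mural marker level (324 CPM) at E18.5. The part of these measures in the course of Col4a1 and Col4a2 was not tested. In the 250 and 82 podocyte-like nuclei without a UMI of any endothelial or mural marker, the balance was 2.79 and 4.33. Of the nuclei, 193 of 1187 and 53 of 285 lay within 5% of a limit between bins.

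**Figure D4:**
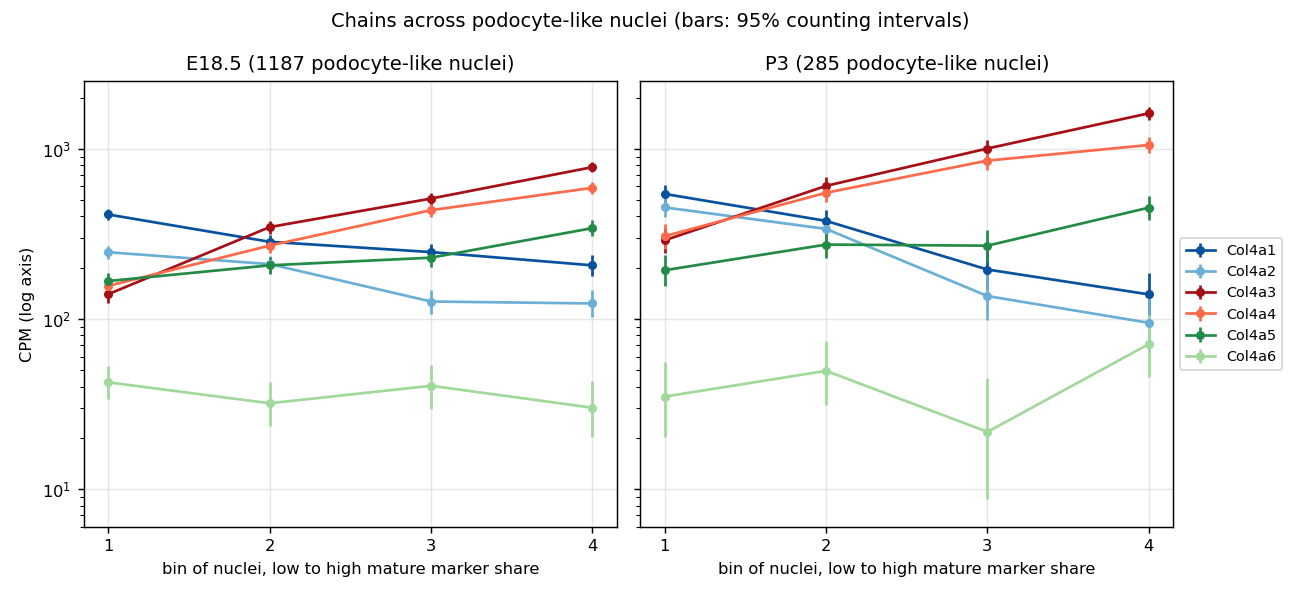
Levels of the 6 chains in CPM (log axis) in 4 bins of podocyte-like nuclei, from the lowest to the highest share of mature podocyte markers, at E18.5 (left) and P3 (right). Bars are 95% counting intervals. Col4a3 and Col4a4 were highest in the last bin, at 780 and 589 CPM at E18.5 and 1615 and 1052 CPM at P3, where Col4a1 and Col4a2 were lowest.

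Between the libraries, podocyte-like nuclei had more Col4a3 at P3 (801 against 387 CPM), 2.07-fold (1.93 to 2.22), and more Col4a4 (642 against 323 CPM), 1.99-fold (1.84 to 2.15). Col4a2 was 1.48-fold (1.33 to 1.66), Col4a5 1.29-fold (1.15 to 1.43) and Col4a1 1.11-fold (1.01 to 1.23) higher, and Col4a6, at 1.19 (0.897 to 1.57), did not differ beyond counting error. Of the 6 chains, 1, Col4a3, was past 2-fold higher at P3, where 2.26% of 14114 genes were, and 0 were past 2-fold lower, against 14.6%. The median log2 ratio was 0.47 over the chains and -0.21 over all genes tested. The Col4a3 call was lost without called doublets (1.83-fold), with Leiden clustering (1.86-fold), with 20 neighbours (1.90-fold), in nuclei without neighbour markers (1.91-fold), with equal weight of nuclei (1.86-fold), with the proximal tubule-like level subtracted (1.97-fold) and under the marker gate (1.07-fold). Without called doublets the ratio of Col4a4 was 1.71. Single clusters also decided whether Col4a3 was past 2-fold. Its ratio was 1.93 without the E18.5 cluster led by Ndnf, 1.47 without the E18.5 cluster of 447 nuclei of which 83.9% were called doublets, 1.23 without the P3 cluster of 131 nuclei with Magi2 and Nphs1 among its leading genes, and 3.16 without the E18.5 cluster of 529 nuclei with the same genes and few doublets. All 6 chains have long introns. The median log2 ratio of genes went from -0.51 in the fifth with the shortest introns to 0.06 in the fifth with the longest, which holds the 6 chains, and the part of intron length in their ratios was not tested.

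The podocyte-like balance was 1.48 times as high at P3 (1.36 to 1.61), but this rested on which clusters the libraries held. Without the E18.5 cluster of 447 nuclei the ratio turned to 0.840 (0.756 to 0.932), and without the P3 cluster of 131 nuclei to 0.725 (0.656 to 0.802). Without the E18.5 cluster of 529 nuclei it was 2.39, and with the P3 cluster of 41 nuclei left out, 92.7% of them called doublets, it was 2.08. The marker gate gave 0.775. Clusters paired by their leading genes, a choice made after their values were seen, gave 1 direction. The clusters with Ndnf were unlike in markers, with 7 of 12 podocyte markers raised at E18.5 and 12 of 12 at P3. The pairs left out 2 E18.5 clusters and 1 P3 cluster that were mostly called doublets. The 72, 14 and 3 nuclei of these that were not called doublets had balances of 1.35, 2.12 and 1.10. Without called doublets, the balance in the pair without Ndnf was 2.52 times as high at P3 (2.05 to 3.11) and in the pair with Ndnf 1.97 times (1.56 to 2.50). Col4a3 was higher at P3 in both pairs, 1.98-fold (1.81 to 2.17) and 3.46-fold (2.57 to 4.74). Col4a1 was lower in the pair without Ndnf, 0.719-fold (0.557 to 0.921), and did not differ beyond counting error in the pair with it, 1.07-fold (0.862 to 1.34).

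Outside podocyte-like nuclei, Col4a3 was also higher at P3 in distal tubule-like (364 against 147 CPM, 2.47-fold, 1.89 to 3.27), ureteric epithelium-like (137 against 40.4 CPM, 3.40-fold, 2.85 to 4.07), early nephron-like (184 against 44.2 CPM, 4.17-fold, 3.64 to 4.79) and proximal tubule-like nuclei (76.0 against 18.3 CPM, 4.16-fold, 3.31 to 5.30). It was lower in loop of Henle-like (354 against 474 CPM, 0.746-fold, 0.654 to 0.851) and interstitium-like nuclei (34.6 against 58.1 CPM, 0.596-fold, 0.530 to 0.668). Col4a4 was higher in the same 4 classes and lower in interstitium-like nuclei. Single clusters decided several of these values. Without the P3 cluster led by Sgcz, the early nephron-like ratio of Col4a3 was 0.882 (0.702 to 1.10). Without the P3 cluster of which 92.9% were called doublets, the proximal tubule-like ratio was 2.24, and without the Slc14a2-led cluster the ureteric epithelium-like ratio was 1.84. Without the larger P3 loop of Henle-like cluster, of 242 nuclei, the loop of Henle-like ratio was 1.28 in place of 0.746. Without the Gria1 and Ntn1-led cluster of E18.5, the interstitium-like ratio was 1.23 (1.06 to 1.43).

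Col4a1 and Col4a2 were higher at P3 in interstitium-like nuclei, by 1.68-fold (1.63 to 1.74) and 2.10-fold (2.01 to 2.19), and in endothelium-like nuclei, by 1.25-fold (1.19 to 1.31) and 1.63-fold (1.54 to 1.73). Without the E18.5 cluster led by Epha3 the interstitium-like ratios were 3.16 and 4.27, and without the P3 cluster led by Zfp536 they were 1.36 and 1.72. Without the P3 cluster of 744 nuclei led by Flt1, the interval of the endothelium-like Col4a1 ratio held 1 (0.988 to 1.12), and the Col4a2 ratio was 1.41. Endothelium-like nuclei also had more Col4a1 and Col4a2 than all other nuclei, with 555 against 402 CPM and 329 against 222 CPM at E18.5, and 691 against 514 CPM and 536 against 338 CPM at P3. None of the 6 chains was past 2-fold higher there, against 7.09% of genes in the E18.5 library and 7.2% in the P3 library. Col4a3 and Col4a4 were past 2-fold lower at both ages, 2 of 6 chains, against 15.3% and 17.1% of genes. Their ratios were 0.408 and 0.432 at E18.5 and 0.325 and 0.396 at P3.

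Genes that act with the chains were described from 4 lists, with called doublets kept and under the main settings only. Their counts stand beside the shares of all genes past 2-fold, which in podocyte-like nuclei were 4.73% higher and 9.39% lower at E18.5 and 7.85% and 21.0% at P3. Of 10 genes for folding, modifying and exporting collagen, 0 were past 2-fold higher or lower in podocyte-like nuclei at E18.5. At P3, 1 was higher, Plod2, a lysyl hydroxylase, at 232 against 76.4 CPM, 3.04-fold (2.73 to 3.38). Between the libraries, P4ha1, a subunit of prolyl hydroxylase, and Ppib, a prolyl isomerase, were past 2-fold lower in podocyte-like nuclei at P3, at 55.2 against 141 CPM and 64.5 against 145 CPM. These 2 of 10 stand beside 14.6% of all genes, and both were also lower at P3 in the nuclei outside the class, at 83.8 against 172 CPM and 61.7 against 190 CPM. In endothelium-like nuclei 1 of the 10 was higher, Plod1 at P3, 2.29-fold, where 7.2% of genes were.

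Of 14 genes of other basement membrane components and crosslinking enzymes, 0 were past 2-fold higher and 1 was lower in podocyte-like nuclei at E18.5. Lama5 lay just under the limit there, 1.95-fold (1.76 to 2.16), with an interval that held 2. At P3, 3 were higher, Loxl2, which crosslinks type IV collagen, 4.39-fold (3.62 to 5.28), Lama5, 2.61-fold (2.25 to 3.02), and Lamb2, 2.34-fold (1.83 to 2.95). Lama5 and Lamb2 encode chains of the mature glomerular laminin. Lama1, a laminin chain of early basement membranes, was the 1 lower at both ages, 0.488-fold and 0.269-fold. Between the libraries, Loxl2 (77.6 against 35.7 CPM) and Col15a1 (102 against 43.3 CPM) were past 2-fold higher at P3 in podocyte-like nuclei and Lama1 (41.6 against 85.3 CPM) lower, 2 and 1 of 14 beside 2.26% and 14.6% of genes. Col15a1 was also higher at P3 in the nuclei outside the class, at 125 against 62.6 CPM. Loxl2 (17.7 against 27.1 CPM) and Lama1 (154 against 175 CPM) were lower there. In endothelium-like nuclei, Hspg2, which encodes perlecan, was 3.64-fold and 4.55-fold higher. There, 3 of the 14 were higher at E18.5, Hspg2, Col15a1 (2.35-fold) and Nid2 (2.03-fold), and at P3 only Hspg2 was, beside 7.09% and 7.2% of genes. Lama1 was lower in them at both ages, 0.157-fold and 0.275-fold, and Lamb1 at P3, 0.419-fold, beside 15.3% and 17.1% of genes.

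Of 6 collagen receptors and matrix integrins, Itga3, which pairs with Itgb1 to bind laminin, was past 2-fold higher in podocyte-like nuclei, 4.34-fold (3.93 to 4.78) at E18.5 and 7.16-fold (6.28 to 8.12) at P3. Ddr1, a collagen receptor kinase, joined it at P3, 2.35-fold (2.04 to 2.70), where Itga1 was lower, 0.404-fold. These were 1 of 6 higher at E18.5, and 2 higher and 1 lower at P3, beside the shares given above. Itga2, of the collagen-binding integrin, was 8.35-fold and 4.03-fold higher in endothelium-like nuclei, where Ddr1 was lower, 0.462-fold and 0.355-fold, and Ddr2 was lower at P3, 0.391-fold. These 1 of 6 higher at each age and 1 and 2 lower stand beside 7.09% and 7.2% of genes higher and 15.3% and 17.1% lower. Lmx1b, a LIM homeodomain factor needed for Col4a3 and Col4a4 expression in podocytes, stood at 159 against 16.1 CPM at E18.5, 9.92-fold (9.07 to 10.8), and at 305 against 18.2 CPM at P3, 16.8-fold (15.1 to 18.6). In endothelium-like nuclei it was 0.224-fold and 0.208-fold the level of the others.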

How the data were processed

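Nuclei were isolated from snap-frozen, pooled mouse kidneys and sequenced on the 10x Genomics platform, 1 library at E18.5 and 1 at P3. The authors deposited UMI counts per gene and barcode, made with Cell Ranger on mm10. The matrix headers name release 7.0.0 for E18.5 and 5.0.1 for P3, and the submitters' processing notes 5.0.1. Whether both counted intronic reads alike is not given in the sources used here.

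The members, markers and gene lists were chosen with earlier results of these data known. Barcodes were left out for few UMIs or genes on a log scale or for a high mitochondrial percent, at 3 median absolute deviations. The study's methods give the same number of deviations but name no log scale. They first call nuclei apart from empty droplets, a step not run here, and the study kept fewer nuclei. The median nucleus had 3132 (E18.5) and 4534 (P3) UMIs. Scrublet (scanpy 1.11.5, expected rate 0.1) called 16.6% and 17.4% of nuclei doublets, which the main values kept. Each library was normalised with scran 1.30.0 (R 4.3.3) and clustered with bluster 1.12.0 (Walktrap, 2000 variable genes, 50 components, 10 neighbours), without the 6 chains and the 31 list genes. A cluster took the name of the class with the most raised markers, at least 3, a marker being raised at 2-fold, unless markers of another class led it. Mural-like clusters needed 5 of 8 markers, and clusters with hemoglobin genes but without Alas2 stayed unnamed, both added after clusters were seen. UMIs were summed per class and given per 1000000 UMIs (CPM) with exact Poisson or conditional binomial 95% intervals, using scipy 1.17.1. With 1 library per age no test was made. A gene was called at 2-fold, among genes with at least 20 UMIs over both groups together. The ratios of podocyte-like over other nuclei, with their intervals and 2-fold calls, were tested on simulated Poisson counts. The other steps were not tested in this way. Gene models were GENCODE M21, which held 32235 of 32285 identifiers. Named genes were the chains, markers, list genes past 2-fold, at most 6 a list, and the 5 genes most like Col4a1 and Col4a3. Genes outside these were named as leading genes of clusters after their values were seen. Some marker and leading genes are not reported here by name.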

Additional observations from a re-analysis of the deposited data

Results flagged for a closer look

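The P3 over E18.5 ratios of Col4a3 and Col4a4 stood out because both were at least 1.94 in 5 classes and at most 0.652 in interstitium-like nuclei, with intervals that did not hold 1. With 1 library per age, the difference between classes was not tested. For Col4a3 the ratios were 2.07 in podocyte-like, 4.17 in early nephron-like, 4.16 in proximal tubule-like, 2.47 in distal tubule-like and 3.40 in ureteric epithelium-like nuclei, against 0.596 in interstitium-like nuclei. For Col4a4 they were 1.99, 3.21, 3.19, 1.94 and 3.38 in the same order, against 0.652. Other classes were mixed. Loop of Henle-like nuclei had 0.746 for Col4a3 and an interval that held 1 for Col4a4 (0.911 to 1.21), and endothelium-like nuclei 1.18 (0.953 to 1.45) and 1.38 (1.15 to 1.65). In leukocyte-like nuclei, with 1.53 and 1.46, and mural-like nuclei, with 0.812 and 1.14, the intervals held 1.

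Several of these values rested on 1 cluster. Without the E18.5 interstitium-like cluster led by Gria1 and Ntn1, the interstitium-like ratios were 1.23 for Col4a3 and 1.48 for Col4a4. Without the P3 cluster led by Sgcz, the early nephron-like ratios were 0.882 and 1.13. Without the P3 cluster of 803 nuclei with 92.9% called doublets, the proximal tubule-like ratios were 2.24 and 1.52. Without the P3 cluster led by Slc14a2, the ureteric epithelium-like ratios were 1.84 and 2.10. The distal tubule-like class was 1 cluster in each library.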

How the results depend on the processing

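No paired analysis was possible because there was 1 library per age. The podocyte-like balance at E18.5 and P3 was 2.88 and 4.16 without called doublets, 3.32 and 5.10 with Leiden clustering, 2.60 and 5.06 with 20 neighbours, 2.79 and 4.33 in nuclei without neighbour markers, 2.34 and 3.22 with equal weight of nuclei, and 1.43 and 2.32 with Col4a5 left out. The per-nucleus marker gate gave 0.934 and 0.724 and turned the P3 over E18.5 ratio to 0.775. That ratio was 1.94 with 20 neighbours and 1.62 with Col4a5 left out. Alternatives added after the data were seen were the subtraction of the leukocyte-like level (5.05, 5.96 and a ratio of 1.18), podocyte-like clusters mostly of singlets (3.41, 3.91 and 1.15), the clusters left out one at a time and the clusters paired by Ndnf. Linear quality limits and loose naming moved none of these 3 values beyond their intervals. Subtracting the proximal tubule-like level gave no balance, since Col4a1 and Col4a2 were lower in podocyte-like nuclei. The P3 over E18.5 ratio turned to 0.780 for Col4a1 with 20 neighbours and to 0.946 for Col4a5 under the gate. The count of chains past 2-fold higher in podocyte-like nuclei at P3, and the Col4a3 call between the libraries, changed with several of these alternatives, as given with those comparisons. Of 310 values of 42 other results, 146 stayed within their intervals, 162 moved beyond them and these 2 turned. The cause of these shifts was not tested. Depth limits Col4a6 and the small classes most.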
